A study of Mus musculus with 6 samples.

Results

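The 50 mitosis genes described here encode the cyclins, kinases, motors and structural proteins with which a cell separates its copied chromosomes. They were chosen by symbol, all 50 were found, and they are 50 of the 35412 genes read from the deposited table. Macrophages grown from mouse femur marrow in macrophage colony-stimulating factor, called bone marrow-derived macrophages or BMDMs, were sequenced as 3 Ctrl libraries without ZA and 3 ZA libraries. ZA is zoledronic acid, a nitrogen-containing bisphosphonate that blocks the mevalonate pathway and is used against bone resorption. RNA was taken 12 h after ZA stimulation. Per the study's methods the mice were C57BL/6 and the cells had 7 days in 10 ng per ml of the factor, all groups included. No genotype, allele or other agent separates the groups in the labels, the ZA concentration of these libraries is not given in the sources used here, and no source says whether libraries of a group came from separate mice or cultures, so that p-values measure the spread between these libraries, which may be technical.

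Entry into mitosis is driven by cyclin-dependent kinase 1 (Cdk1) bound to A-type and B-type cyclins. The spindle then captures chromosomes at their kinetochores, a checkpoint holds anaphase until all are attached, and the contractile ring splits the cell. Most of these genes are transcribed late in the cell cycle, so that their summed RNA is commonly read as a sign of dividing cells, and macrophages grown in culture with colony-stimulating factor still hold some dividing cells. In RNA from a whole culture, fewer dividing cells and less RNA per dividing cell cannot be told apart.

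Levels are given as FPKM, which divides the fragments of a gene by its length and by all fragments of the library, the unit of the deposited values. Each library held between 41230600 and 42155808 fragments. Macrophage markers were high in all 6 libraries, none of the 10 listed being under 1 FPKM. Csf1r, the receptor of the growth factor, lay between 767 and 848 FPKM, and Adgre1, which encodes F4/80, between 526 and 593 FPKM. The summed level of 10 macrophage markers was 23744 to 27639 FPKM in Ctrl and 24624 to 28129 FPKM in ZA. Lyz2 alone, at 20472 to 24669 FPKM over the 6 libraries, made up most of this sum. Against these levels the mitosis genes were low. Their mean over the 6 libraries ran from 0.131 FPKM for Cdc25c to 17.6 FPKM for Incenp, with a median of 2.002 FPKM over the 50 genes, where the median of all tested genes was 9.04 FPKM. Only Incenp and Cenpa were above 10 FPKM, and 46 of the 50 genes were under 5 FPKM. A member had between 8 and 2456 fragments in a library, with a median of 226.5.

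The mitosis genes were mostly a little lower after ZA, and none of them passed the test across all genes. Over all 50 members the summed level was 137, 138 and 140 FPKM in Ctrl 1, 2 and 3, and 131, 128 and 127 FPKM in ZA 1, 2 and 3. The groups did not overlap in this sum. By mean FPKM, 41 members were lower in ZA and 9 were higher. Of all genes above 0 FPKM, 9315 were lower and 10043 higher by the mean of log2(FPKM + 1). The ratio of the ZA mean to the Ctrl mean ran from 0.697 for Melk to 1.15 for Pttg1 with a median of 0.910 over the members. The lowest level of a member was found in ZA 3 for 18 members, in ZA 2 for 11 and in ZA 1 for 8, and in a Ctrl library for the other members. How often each library held the lowest level over all genes was not counted.

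Differences were tested with limma on log2(FPKM + 1), a scale that understates the change of genes of low level, for the 9800 genes with a mean of at least 1 FPKM over the 6 libraries. Of the 50 members, 36 were tested, and 14 were under this level: Cdc25c, Melk, Bub1, Ttk, Cenpe, Cenpf, Kif15, Kif20b, Kif2c, Kif4, Hmmr, Ckap2, Anln and Ncapg. Of the 36 tested members, 0 had an adjusted p under 0.05 (Benjamini-Hochberg), where 0.367% of all tested genes had one. At an unadjusted p under 0.05, 7 members were lower in ZA, against 4.85% of all tested genes, and 1 member was higher, against 7.50% of all tested genes. Over all tested genes 735 were higher and 475 lower at this p, and this balance turned with the scaling, to 508 higher and 664 lower with median centring, and 574 and 589 with quantile normalization. The 7 were Cenpa, Ccna2, Ccnb2, Ube2c, Smc2, Prc1 and Top2a, and the 1 was Pttg1. Whatever their p, 29 of the 36 (80.6%) were lower in ZA, against 43.1% of all tested genes, and their median log2 fold change was -0.07, against 0.01 for all tested genes. Every ZA library lay below every Ctrl library for 8 of the 36, against 6.76% of all tested genes, and above for 1, against 11.4%.

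The 14 members under this level were tested on their fragments alone. With voom weights on the whole fragments recovered from the table, chosen after the data had been seen, 12849 genes with at least 10 fragments in 3 libraries were tested, all 50 members among them. In this fit 40 members were lower and 10 higher, with 45.8% of all genes of this fit lower, and 1 member, Cenpa, had an adjusted p under 0.05, as did 129 of the 12849 genes. At an unadjusted p under 0.05, 8 members were lower, against 5.11% of the genes, and 1 was higher, against 6.91%. The median log2 fold change of the 50 was -0.13. Every ZA library lay below every Ctrl library for 12 of the 50, against 6.85%, and above for 1, against 9.88%.

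**Figure D1:**
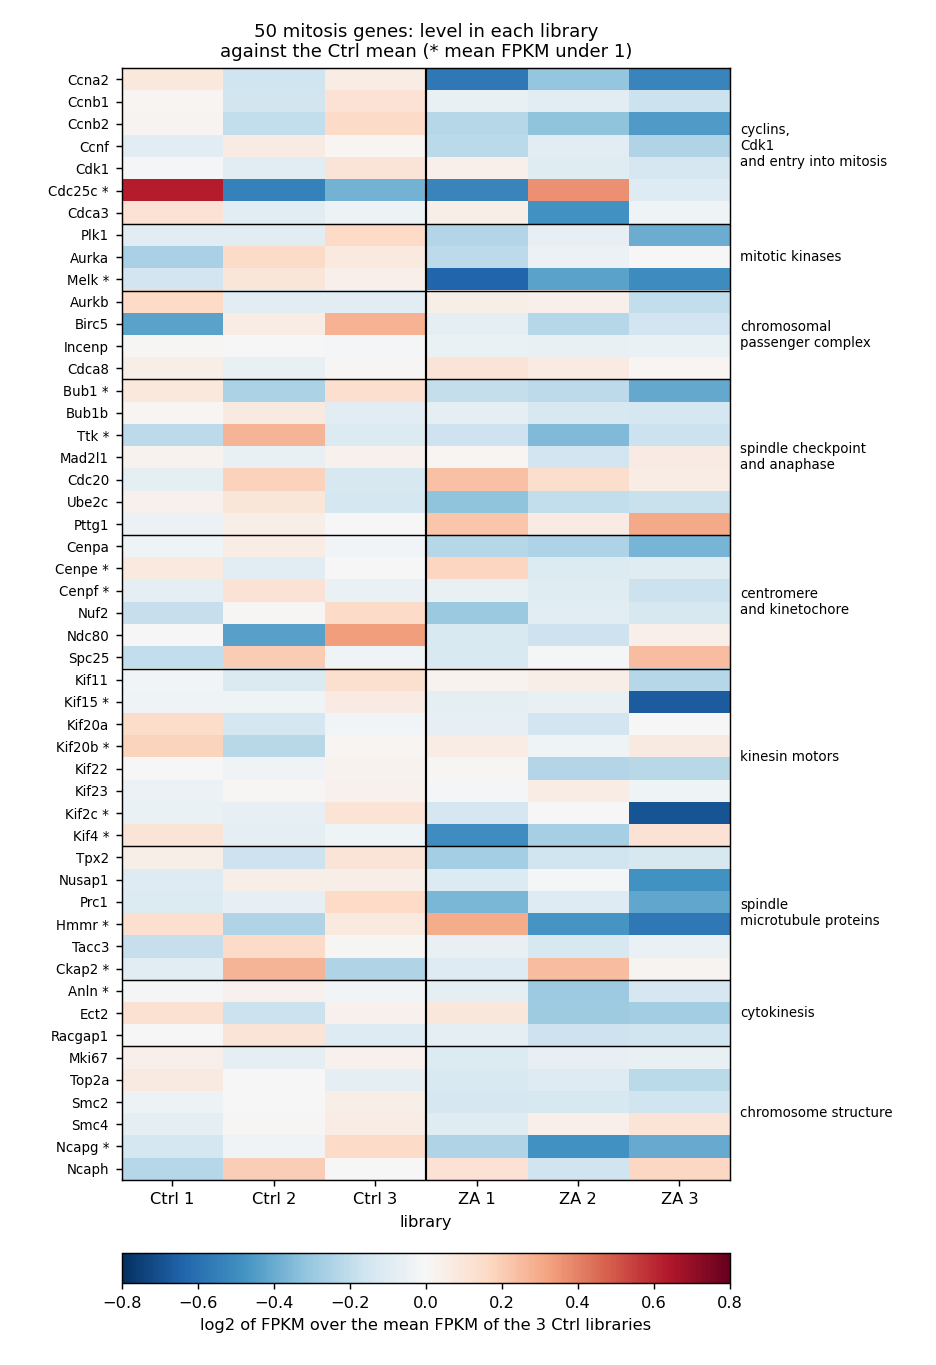
Level of the 50 mitosis genes in each library as the log2 of FPKM over the mean of the 3 Ctrl libraries, with genes in rows by role, libraries in columns and blue for lower levels; a star marks the 14 genes with a mean under 1 FPKM. The ZA columns are blue in most rows, while Cdc25c, at 8 to 18 fragments a library, varies as much within as between groups.

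Promoters of these genes are known to share 2 short elements. These are the cell cycle genes homology region (CHR), through which the DREAM complex represses them in resting cells, and the CCAAT box bound by NF-Y. RefSeq promoters of build GRCm38.p6, from 250 bases before to 50 bases after the start, were matched by symbol for 43 members, with 45 promoters in all. Ccna2, Cdc25c, Aurkb, Incenp, Kif20a, Tpx2 and Smc4 had no match. The letters TTTGAA, as in a CHR, stood on either strand in 34 of the 45 member promoters (75.6%), and in 17.9% of all 32851 promoters of this length. CCAAT stood on either strand in 32 of the 45 (71.1%), and in 37.4% of all promoters. Both stood in 29 of the 45 (64.4%), and in 6.95% of all promoters. Where matches of the 2 overlapped, both were counted.

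The 100 bases before the start are shown for 5 members that carry these letters and for Pttg1, the member with the largest difference upward, to set against them. Capitals mark TTTGAA and CCAAT or, where the match is on the other strand, TTCAAA and ATTGG.
Ccnb2: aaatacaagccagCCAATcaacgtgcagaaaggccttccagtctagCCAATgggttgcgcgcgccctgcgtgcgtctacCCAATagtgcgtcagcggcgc
Cdk1: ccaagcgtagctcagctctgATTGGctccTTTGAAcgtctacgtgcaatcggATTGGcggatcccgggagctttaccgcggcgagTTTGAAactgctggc
Top2a: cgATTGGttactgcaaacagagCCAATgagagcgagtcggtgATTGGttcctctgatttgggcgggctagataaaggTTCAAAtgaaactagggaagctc
Ube2c: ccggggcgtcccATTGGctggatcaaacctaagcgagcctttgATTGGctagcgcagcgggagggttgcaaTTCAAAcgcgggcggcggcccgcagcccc
Prc1: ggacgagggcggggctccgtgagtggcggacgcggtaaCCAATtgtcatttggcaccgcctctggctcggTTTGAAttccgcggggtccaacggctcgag
Pttg1: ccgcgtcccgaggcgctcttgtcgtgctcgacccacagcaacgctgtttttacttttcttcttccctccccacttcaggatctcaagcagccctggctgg

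In GRCm38.p6 these windows are chr9:70421555-70421654 on the minus strand for Ccnb2, chr10:69352913-69353012 on the minus strand for Cdk1, chr11:99024190-99024289 on the minus strand for Top2a, chr2:164769829-164769928 on the plus strand for Ube2c, chr7:80294376-80294475 on the plus strand for Prc1 and chr11:43425982-43426081 on the minus strand for Pttg1. The Ccnb2 promoter held 3 CCAAT boxes within the window, and its TTTGAA matches lay outside it, at -167 and 5 from the start. The Cdk1 window held TTTGAA at -71 and -15. In Top2a, Ube2c and Prc1 the match nearest the start began at -23, -29 and -30. Pttg1 held neither set of letters in its whole promoter of 300 bases, and neither did Melk, the member with the lowest ratio of ZA to Ctrl. Cdc20 and Cdca8, which also had higher means in ZA, held both sets, with TTTGAA at -18 and 14. A link between these letters and the direction of a member was not tested. A match is a description of the letters and not of a bound site, and these data measured RNA only.

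Among cyclins, Cdk1 and other genes of entry into mitosis, all 6 tested members of 7 were lower in ZA, where 43.1% of all tested genes were lower. Their median log2 fold change was -0.10, and 2 of them, Ccna2 and Ccnb2, had an unadjusted p under 0.05, against 4.85% of all tested genes. Ccna2, or cyclin A2, which pairs with Cdk2 in S phase and with Cdk1 on the way into mitosis, was at 2.61, 2.21 and 2.57 FPKM in Ctrl 1, 2 and 3, and at 1.66, 1.99 and 1.71 FPKM in ZA 1, 2 and 3. Every ZA library lay below every Ctrl library, and the mean was 27.5% lower, at 2.46 ± 0.220 FPKM (SD, n = 3) in Ctrl and 1.78 ± 0.177 FPKM in ZA. Its log2 fold change of -0.31 (SE 0.07) had an adjusted p of 0.110 by limma. By annotation (GENCODE M21) the exons of Ccna2 share 510 bases with those of Exosc9 on the opposite strand. Exosc9 was at 14.0 FPKM in Ctrl and 13.7 FPKM in ZA, and whether fragments were counted by strand is not given in the sources used here, so fragments in the shared bases cannot be told apart.

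Ccnb2, the B-type cyclin found at the Golgi, was at 2.69, 2.31 and 2.95 FPKM in Ctrl and at 2.27, 2.12 and 1.94 FPKM in ZA. The groups did not overlap, and the ZA mean was 20.5% lower, with a log2 fold change of -0.23 (SE 0.07) and an adjusted p of 0.262 by limma. Ccnb1, the main mitotic cyclin, was at 3.46, 3.10 and 3.71 FPKM in Ctrl and at 3.28, 3.22 and 3.03 FPKM in ZA. The Ctrl 2 library fell inside the ZA range, and the interval of the Ccnb1 log2 fold change ran from -0.22 to 0.05. Cdk1 itself was at 2.59, 2.46 and 2.81 FPKM in Ctrl and at 2.69, 2.45 and 2.39 FPKM in ZA. ZA 1 stood above 2 of the 3 Ctrl libraries, and the 95% interval of the Cdk1 log2 fold change, -0.17 to 0.08, held 0. Among the others, Ccnf, the F-box cyclin, was lower in every ZA library than in any Ctrl library, with means of 1.46 and 1.28 FPKM. Cdca3, an adaptor of a ubiquitin ligase, had overlapping groups, and Cdc25c, the phosphatase that activates Cdk1, was near the limit of counting at 8 to 18 fragments.

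Of the 3 mitotic kinases, Plk1 and Aurka were tested, and neither had an unadjusted p under 0.05. Plk1, polo-like kinase 1, was at 1.83, 1.83 and 2.17 FPKM in Ctrl and at 1.65, 1.86 and 1.48 FPKM in ZA. ZA 2 lay above 2 of the Ctrl libraries, and the interval of its log2 fold change was -0.31 to 0.02. Aurka, the kinase of the spindle poles, was at 1.25, 1.66 and 1.58 FPKM in Ctrl and at 1.29, 1.44 and 1.50 FPKM in ZA. Here the groups lay over each other, with a log2 fold change of -0.05 (SE 0.07). Melk, a kinase common in dividing cells, is singled out with its values seen. It was at 0.893, 1.06 and 1.02 FPKM in Ctrl and at 0.639, 0.736 and 0.699 FPKM in ZA. All ZA libraries were lower than all Ctrl libraries, and the mean difference of 30.3% was the largest downward among the 50. It rested on 68 to 79 fragments a library in ZA and 96 to 114 in Ctrl, and with voom its log2 fold change was -0.52 (SE 0.18) with an adjusted p of 0.258.

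The chromosomal passenger complex corrects faulty attachments of chromosomes to the spindle, and its 4 members had a median log2 fold change of -0.04. Incenp, the scaffold of the complex, was the member of highest level, at 18.1, 18.0 and 17.9 FPKM in Ctrl and at 17.3, 17.2 and 17.3 FPKM in ZA. The groups did not overlap, yet the mean differed by only 3.83%, and the 95% interval of the log2 fold change was -0.11 to 0.01. Cdca8, or borealin, was at 4.71, 4.38 and 4.59 FPKM in Ctrl and at 4.89, 4.76 and 4.61 FPKM in ZA, with a log2 fold change of 0.05 (SE 0.04). Its ZA libraries lay within or above the Ctrl range. Its exons share 232 bases with 9930104L06Rik on the opposite strand, which was at 3.86 and 3.88 FPKM in the 2 groups. Aurkb, the kinase of the complex, and Birc5, or survivin, had overlapping groups with log2 fold changes of -0.03 and -0.07. The mean was 2.26% lower in ZA for Aurkb and 9.86% lower for Birc5.

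**Figure D2:**
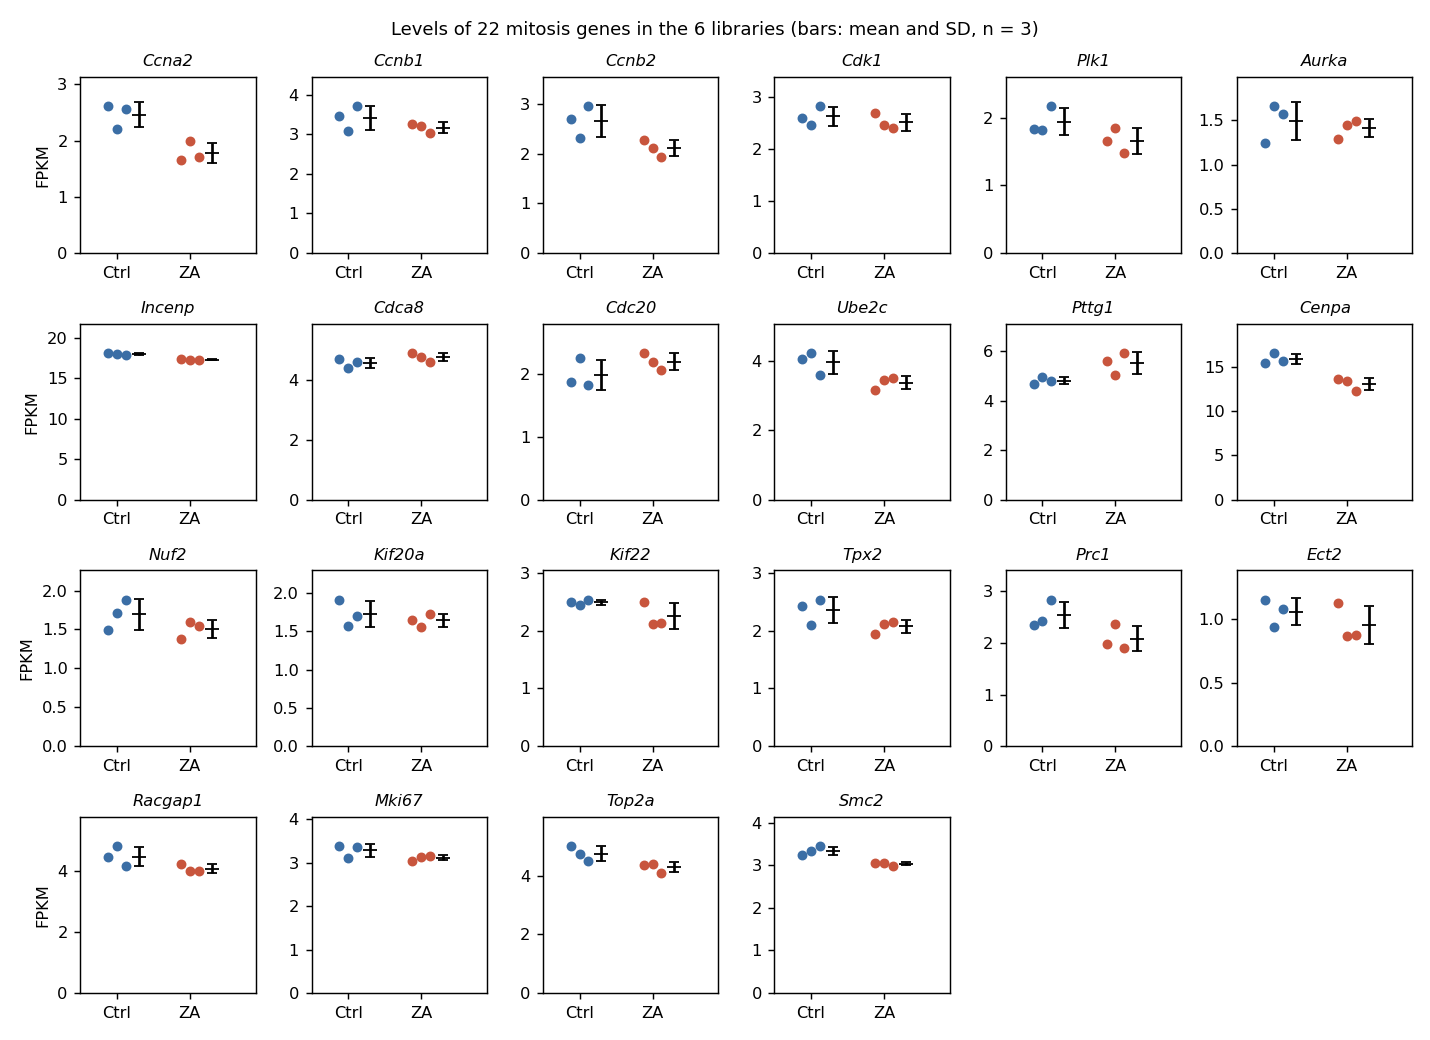
FPKM in each library (points, Ctrl blue and ZA red) of the 22 mitosis genes with a mean of at least 1 FPKM whose values are given by library, with the mean and SD of the 3 libraries of a group beside them and every axis from 0. Ccna2, Ccnb2, Ube2c, Cenpa, Top2a, Smc2 and Incenp have no overlap between groups with ZA lower, Pttg1 has none with ZA higher, and the groups of the other 14 overlap.

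Genes of the spindle checkpoint and of anaphase differed in both directions. Of 5 tested members of 7, 3 were lower and 2 higher in ZA, where 43.1% of all tested genes were lower, with a median log2 fold change of -0.02. Ube2c, the ubiquitin-conjugating enzyme of the anaphase-promoting complex, was at 4.07, 4.24 and 3.60 FPKM in Ctrl and at 3.18, 3.46 and 3.52 FPKM in ZA. Its groups did not overlap, and the ZA mean was 14.7% lower, with a log2 fold change of -0.18 (SE 0.06) and an adjusted p of 0.283 by limma. Pttg1, or securin, the inhibitor of separase that this complex destroys, was higher in ZA, at 4.65, 4.96 and 4.80 FPKM in Ctrl and 5.61, 5.03 and 5.92 FPKM in ZA. Every ZA library was above every Ctrl library, ZA 2 by a small step, and the mean was 14.9% higher. Pttg1 had a log2 fold change of 0.17 (SE 0.06) and an adjusted p of 0.285 by limma. Cdc20, an activator of the same complex, was at 1.87, 2.25 and 1.81 FPKM in Ctrl and at 2.32, 2.18 and 2.06 FPKM in ZA. Ctrl 2 lay among the ZA libraries, and the interval of its log2 fold change was -0.05 to 0.25. The checkpoint kinases and proteins Bub1, Bub1b, Ttk and Mad2l1 all had lower means in ZA, by 1.55% for Mad2l1 to 16.9% for Bub1, with overlapping groups.

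At the centromere, Cenpa had the smallest p of all members. Cenpa encodes the histone H3 variant that marks the site where the kinetochore is built. It was at 15.5, 16.5 and 15.6 FPKM in Ctrl and at 13.5, 13.4 and 12.2 FPKM in ZA. The lowest Ctrl library stood well above the highest ZA library, and the mean was 17.7% lower, at 15.9 ± 0.575 FPKM (SD, n = 3) in Ctrl and 13.0 ± 0.700 FPKM in ZA. Its log2 fold change was -0.26 (SE 0.04, interval -0.37 to -0.16) with an adjusted p of 0.0673 by limma, and voom on fragments gave -0.28 (SE 0.06) with an adjusted p of 0.0313. Cenpa was also one of the members with most fragments, 885 to 1177 a library. The outer kinetochore genes had overlapping groups. Nuf2, of the Ndc80 complex that binds microtubules, was at 1.49, 1.71 and 1.88 FPKM in Ctrl and at 1.38, 1.60 and 1.55 FPKM in ZA, with overlap and a log2 fold change of -0.10 (SE 0.07). Its partners Ndc80 and Spc25 had log2 fold changes of -0.04 and 0.03 with overlapping groups, and the large kinetochore proteins Cenpe and Cenpf, both under 1 FPKM, had means of 0.683 and 0.681 FPKM and of 0.242 and 0.225 FPKM in Ctrl and ZA.

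The 8 kinesin motors, which slide spindle microtubules and carry chromosomes along them, showed no difference that passed a test. Among the 4 tested the median log2 fold change was -0.04. Kif22, a motor on chromosome arms, was at 2.49, 2.44 and 2.53 FPKM in Ctrl and at 2.50, 2.11 and 2.14 FPKM in ZA. ZA 2 and ZA 3 were below the Ctrl range and ZA 1 inside it, with a log2 fold change of -0.10 (SE 0.06). Kif20a, which acts at the central spindle, was at 1.91, 1.57 and 1.70 FPKM in Ctrl and at 1.65, 1.56 and 1.73 FPKM in ZA, so that the groups lay over each other. Its exons share 1271 bases with those of Cdc23 on the opposite strand, at 3.56 FPKM in Ctrl and 3.79 FPKM in ZA. Kif23, of the central spindle too, differed least among the tested members, with means of 4.13 and 4.15 FPKM and an interval from -0.09 to 0.10. Of the 4 motors under 1 FPKM, Kif15, Kif2c and Kif4 had means 12.5% to 15.7% lower in ZA and Kif20b had a mean 2.17% higher. Kif15 and Kif2c were lowest in ZA 3, with 70 and 59 fragments. The groups of Kif15 did not overlap, but ZA 1 and ZA 2 lay only just below its Ctrl range.

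Spindle microtubule proteins, which nucleate and bundle the fibres, were lower in ZA for all 4 tested of 6, where 43.1% of all tested genes were lower. Prc1, which crosslinks the antiparallel microtubules of the central spindle, was at 2.35, 2.43 and 2.83 FPKM in Ctrl and at 1.97, 2.36 and 1.91 FPKM in ZA. ZA 2 just overlapped Ctrl 1, the mean was 18.1% lower, and the log2 fold change of -0.20 (SE 0.07) had an adjusted p of 0.338 by limma. The exons of Prc1 share 911 bases with Rccd1 on the opposite strand, which was at 0.606 and 0.497 FPKM in Ctrl and ZA. Tpx2, the activator of Aurora A, was at 2.43, 2.10 and 2.54 FPKM in Ctrl and at 1.95, 2.11 and 2.16 FPKM in ZA, with Ctrl 2 inside the ZA range and an interval of -0.27 to 0.01. Nusap1, Tacc3 and Hmmr had lower means in ZA with overlap, and Ckap2 had a mean 4.37% higher.

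In cytokinesis, all 3 members had lower means in ZA. All 3 were also lower in the voom fit, where 45.8% of all genes were lower. Racgap1, of the centralspindlin complex, was at 4.45, 4.79 and 4.15 FPKM in Ctrl and at 4.22, 3.98 and 3.99 FPKM in ZA. ZA 1 stood above Ctrl 3, and the interval of the log2 fold change was -0.23 to 0.01. Ect2, the exchange factor that activates RhoA at the furrow, was at 1.15, 0.941 and 1.08 FPKM in Ctrl and at 1.12, 0.867 and 0.872 FPKM in ZA, again with overlap. Anln, or anillin, of the contractile ring, had no overlap between groups, with means of 0.872 and 0.778 FPKM, and was not tested on the FPKM scale.

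Among the genes of chromosome structure stood the 2 genes most used as markers of division. Mki67, the antigen Ki-67 that coats mitotic chromosomes, was at 3.38, 3.12 and 3.36 FPKM in Ctrl and at 3.05, 3.14 and 3.15 FPKM in ZA. Ctrl 2 lay inside the ZA range, the mean was 5.22% lower, and the interval of the log2 fold change was -0.16 to 0.04. Top2a, the topoisomerase that untangles sister chromatids, was at 4.99, 4.74 and 4.49 FPKM in Ctrl and at 4.36, 4.41 and 4.08 FPKM in ZA. The groups were apart by a small step, and the mean was 9.67% lower, with a log2 fold change of -0.12 (SE 0.05) and an adjusted p of 0.362 by limma.

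The condensin subunits that compact the chromosomes differed from each other. Smc2, a core subunit, was at 3.24, 3.33 and 3.44 FPKM in Ctrl and at 3.05, 3.06 and 2.99 FPKM in ZA. Its groups did not overlap, and its log2 fold change was -0.11 (SE 0.04) with an adjusted p of 0.353 by limma. Smc4, the partner of Smc2 in every condensin, had means of 5.40 and 5.48 FPKM in Ctrl and ZA with overlapping groups. Ncapg, singled out with its values seen, was at 0.893, 0.968 and 1.10 FPKM in Ctrl and at 0.836, 0.704 and 0.745 FPKM in ZA. All of its ZA values were lower than its Ctrl values, with a voom log2 fold change of -0.37 (SE 0.16) and an adjusted p of 0.376. Ncapg shares 944 exonic bases with Lcorl on the opposite strand, at 1.28 FPKM in Ctrl and 1.40 FPKM in ZA. Ncaph, of the same complex, had a mean 3.41% higher in ZA with overlap. In all, 10 of the 50 members share exonic bases with a gene of the table, and Cenpa, Ccnb2, Smc2, Top2a and Pttg1 are not among them. Top2a does share 122 exonic bases on the same strand with Gm23451, which had no values here. Cdc20 shares 53 bases with Elovl1, at 32.2 FPKM in Ctrl and 32.5 FPKM in ZA. Kif4 shares 832 bases with Pdzd11, at 7.43 FPKM in Ctrl and 7.69 FPKM in ZA.

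**Figure D3:**
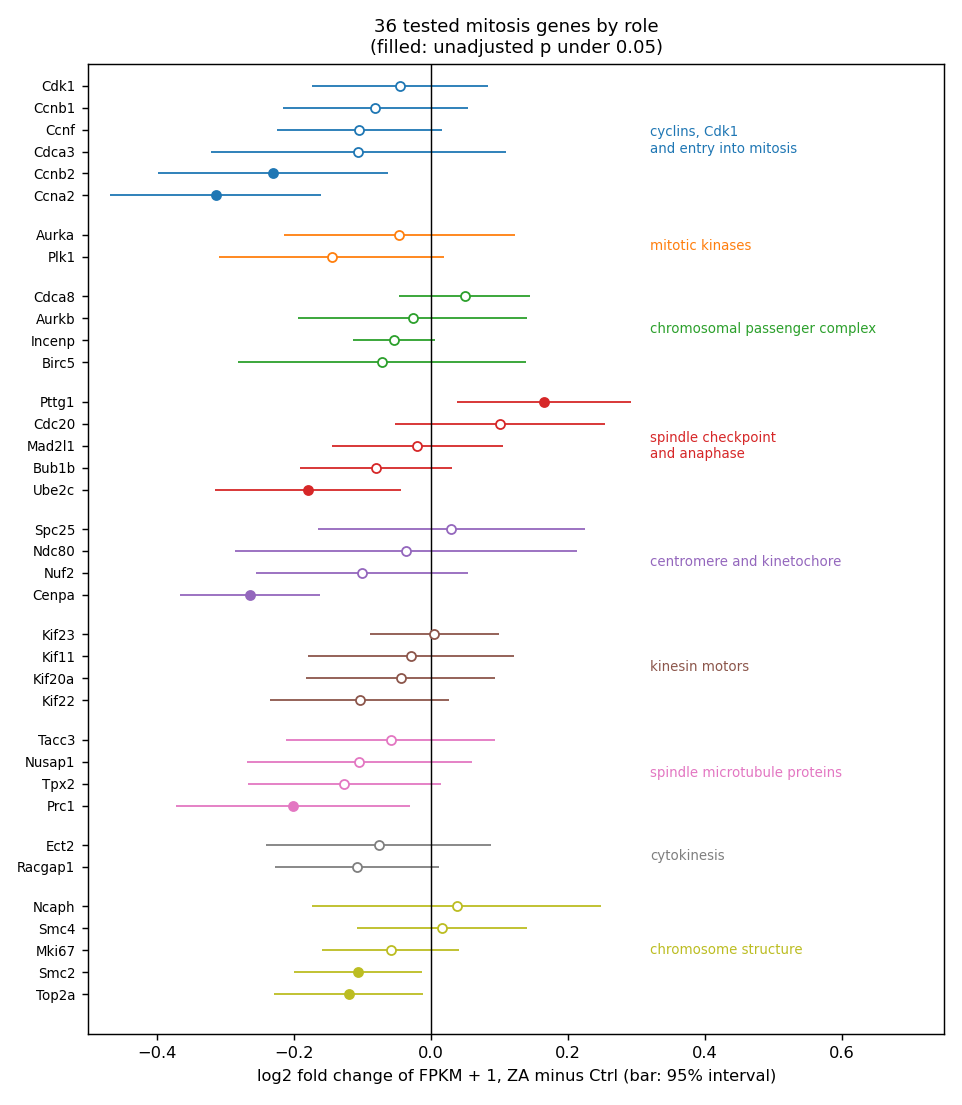
Log2 fold change of FPKM + 1, ZA minus Ctrl, of the 36 tested mitosis genes by role, with 95% intervals from limma and filled points where the unadjusted p is under 0.05. Most points lie left of 0, from -0.31 for Ccna2 to 0.17 for Pttg1, and 28 of the 36 intervals hold 0.

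A wider list of 114 other mitosis genes, further subunits of the same machines and their regulators, went in both directions, with a larger share lower than over all genes. Of its 74 tested genes 40 (54.1%) were lower and 34 higher in ZA, with 43.1% of all tested genes lower. In the voom fit of all 114 genes 69 (60.5%) were lower and 45 higher, with 45.8% of the genes of that fit lower. By limma 3 of the lower and 4 of the higher genes had an unadjusted p under 0.05, against 4.85% and 7.50% of all tested genes. An adjusted p under 0.05 was found for 0 of them by limma or by voom, and the median log2 fold change by limma was -0.01. Among its 3 genes with the smallest p, Foxm1, the transcription factor that drives many late cell cycle genes, was lower. Foxm1 was at 1.32, 1.47 and 1.45 FPKM in Ctrl and at 1.18, 0.865 and 1.15 FPKM in ZA, with no overlap, a log2 fold change of -0.23 (SE 0.07) and an adjusted p of 0.258 by limma. Cdca4, a cell cycle regulator, was higher in every ZA library, with means of 7.96 and 8.88 FPKM and an adjusted p of 0.201. Ncapg2, the condensin II counterpart of Ncapg, was also higher in every ZA library, with means of 12.1 and 13.0 FPKM and an adjusted p of 0.341.

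Most tested genes of DNA replication, which act before mitosis in S phase, were lower. Of 43 listed and 32 tested genes, 24 were lower in ZA and 8 higher, where 43.1% of all tested genes were lower, with a median log2 fold change of -0.08. An unadjusted p under 0.05 was found for 13 that were lower, against 4.85% of all tested genes, and 0 that were higher, against 7.50%. An adjusted p under 0.05 was found for 3, all lower, against 0.367% of all tested genes in either direction. Pcna, the sliding clamp of the polymerases, was at 177, 178 and 180 FPKM in Ctrl and at 162, 158 and 157 FPKM in ZA, with a log2 fold change of -0.16 (SE 0.02) and an adjusted p of 0.0453 by limma. Mcm5, of the replicative helicase, was at 6.26, 5.99 and 5.79 FPKM in Ctrl and at 4.89, 4.46 and 4.65 FPKM in ZA, with a log2 fold change of -0.31 (SE 0.04) and an adjusted p of 0.0487. Rrm2, a subunit of ribonucleotide reductase, was at 4.23, 4.19 and 3.89 FPKM in Ctrl and at 3.27, 3.01 and 3.07 FPKM in ZA, with a log2 fold change of -0.31 (SE 0.05) and an adjusted p of 0.0487. In all 3 genes the groups were apart by more than their spread. Without a filter and with a prior without a trend none of these 3 calls was kept. The Pcna call was also lost with quantile normalization and in all but 1 of the 6 fits that left out a library (kept without ZA 1), so that it stood in 7 of 15 alternatives, with an adjusted p of up to 0.2003. Mcm5 and Rrm2 lost their calls in all 6 fits without a library, and stood in 7 of 15 and 5 of 14 alternatives, with an adjusted p of up to 0.230.

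Cell cycle inhibitors were mixed. Of 19 tested of 21, 8 were lower and 11 higher in ZA, where 43.1% of all tested genes were lower. Their median log2 fold change was 0.03, against 0.01 for all tested genes. At an unadjusted p under 0.05, 3 were lower, against 4.85% of all tested genes, and 2 were higher, against 7.50%. By limma 1 inhibitor, Cdkn1c, had an adjusted p under 0.05, against 0.367% of all tested genes in either direction. Cdkn1a, the inhibitor p21 of cyclin-dependent kinases, was at 19.5, 19.9 and 19.8 FPKM in Ctrl and at 23.7, 22.6 and 21.8 FPKM in ZA, with a log2 fold change of 0.19 (SE 0.03) and an adjusted p of 0.0761 by limma. Cdkn1c, the related inhibitor p57, fell from 66.8, 67.2 and 69.1 FPKM in Ctrl to 61.3, 58.5 and 58.6 FPKM in ZA, with an adjusted p of 0.0487. This call stood in the same 7 of 15 alternatives as that of Pcna, with an adjusted p of up to 0.230. Btg2, an antiproliferative gene, had means of 14.0 and 15.3 FPKM and an adjusted p of 0.225. These lists share the same 6 libraries, and no test between lists was made.

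**Figure D4:**
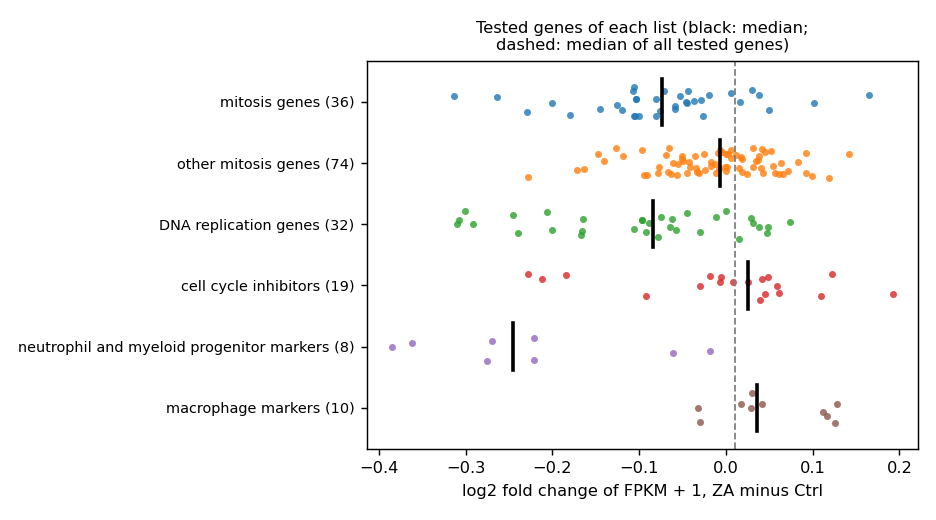
Log2 fold change of FPKM + 1, ZA minus Ctrl, of the tested genes of 6 lists (points, 1 a gene, spread vertically at random), with the median of each list as a black bar and the median of all tested genes dashed. The medians are -0.07 for the 36 mitosis genes, -0.01 for the 74 other mitosis genes, -0.08 for DNA replication, 0.03 for the inhibitors, -0.25 for neutrophil and myeloid progenitor markers and 0.04 for macrophage markers.

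Most tested markers of granulocyte progenitors were also lower in ZA. The summed level of 19 neutrophil and myeloid progenitor markers was 41.3 to 57.7 FPKM in Ctrl and 36.7 to 41.9 FPKM in ZA, with overlapping groups. By limma all 8 tested genes were lower, where 43.1% of all tested genes were, with a median log2 fold change of -0.25. An unadjusted p under 0.05 was found for 4, against 4.85% of all tested genes. In the voom fit 13 were lower and 2 higher, with 45.8% of the genes of that fit lower. An adjusted p under 0.05 was found for 0 by limma or by voom. Mpo, Elane and Prtn3, granule proteins of granulocyte progenitors, lay between 2.14 and 2.64 FPKM in Ctrl and between 1.39 and 2.06 FPKM in ZA, while Ly6g, which defines mature neutrophils, was at 0 in all 6 libraries. Of the 10 macrophage markers 8 were higher by limma, as were 5579 of all 9800 tested genes. Among the 8, 3 had an unadjusted p under 0.05, where 7.50% of all tested genes were higher at this p. The adjusted p by limma was under 0.05 for 0 markers, against 0.367% of all tested genes in either direction. With voom it was under 0.05 for 2 markers, as for 129 of the 12849 genes of that fit in either direction. The 8 fibroblast and endothelial markers summed to 23.5 to 39.4 FPKM in Ctrl and 21.5 to 29.1 FPKM in ZA. By limma 5 of these were lower and 1 higher. The 6 mast cell and megakaryocyte markers summed to 69.4 to 78.5 FPKM in Ctrl and 57.5 to 68.9 FPKM in ZA, without overlap. By limma 3 of these were lower and 0 higher. Both lists had a median log2 fold change of -0.19, so lower levels were not particular to granulocyte progenitor markers. The 10 lymphocyte markers summed to 11.6 to 11.8 and 10.6 to 12.3 FPKM, and the 8 erythroid markers to 0.439 to 2.72 and 0.825 to 2.02 FPKM, with Car1 at 0 throughout. The part of these markers' cells in the lower levels of the mitosis genes was not tested.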

How the data were processed

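Total RNA of 6 BMDM libraries was sequenced by the study as 150 bp paired-end reads. The methods name a VAHTS library kit and the labels also a SMARTER kit. The authors deposited 1 table of FPKM per gene and library (mm9 per the submitters' processing notes), a normalized unit and not counts, and other steps are not given in the sources used here. In the deposited table most rows had lost the separators between values, and other than 11 rows all were cut by the width of the numbers and by asking that every cut give integer fragments for 1 gene length and the totals of the 6 libraries. Of 35434 rows 35412 were restored, 22 were left out, and the 11 intact rows came out identical. In each library 99.71% of fragments fell in restored rows. Of 3000 simulated rows, tested on simulated data, 2989 were restored, 11 were left out and none was cut wrongly. The simulated rows took their lengths and levels from restored rows and were written by the same width rule, so they cannot show errors in that rule.

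Genes with a mean of at least 1 FPKM entered limma 3.58.1 as log2(FPKM + 1) (lmFit, eBayes with a trend, two-sided) in R 4.3.3, with Benjamini-Hochberg adjustment over all 9800 genes, and 0.05 as threshold. An exact permutation test of 3 against 3 cannot give a p under 0.1 and was not used. The members and all lists were chosen with earlier results of these data known. Values by library are given for Mki67, Top2a, Cdk1, Ccnb1, the 2 tested members of each role with the smallest p, the 3 tested members with the largest positive statistic and, of other lists, from the 3 genes with the smallest p. Melk and Ncapg were added outside this rule after their values were seen. Alternatives were a pseudocount of 0.1, no filter, a filter of 5 FPKM, median centring, quantile normalization, a prior without a trend, the replicate block, voom on recovered fragments and leaving out each library. Libraries of a group were not duplicates, with a chi-square per gene of 3.522 to 9.728. Python 3.11.15, NumPy 2.4.6, pandas 2.3.3 and Matplotlib 3.10.9 were used.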

Additional observations from a re-analysis of the deposited data

How the results depend on the processing

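The direction of the median of the mitosis genes was negative under every alternative run, and at most 1 member passed the adjusted test under any of them. Over all genes, 36 had an adjusted p under 0.05, against 1 without a filter, 20 with quantile normalization, 1 with a prior without a trend, 78 with the replicate block, 132 with voom on the same genes, 129 with voom at 10 fragments, and 0 to 25 on leaving out a library. The share of the all-gene calls that were higher, 55.6%, was 37.9% with median centring. The number of mitosis genes lower at an unadjusted p under 0.05 was 7, and 1 with a filter of 5 FPKM, where 4 members were left. It was 4 to 9 on leaving out a library, with 4 without ZA 3. The number higher was 1, and 0 to 2 on leaving out a library, with 0 without Ctrl 1 or ZA 3 and 2 without Ctrl 2. The count with an adjusted p under 0.05 was 0, and it was 1, Cenpa, with a filter of 5 FPKM (adjusted p = 0.0483), with the replicate block (0.0431) and with voom on the same genes (0.0295) or at 10 fragments (0.0313). Over its alternatives the adjusted p of Cenpa ran from 0.0295 to 0.244. The median log2 fold change of -0.07 was -0.11 with a pseudocount of 0.1, -0.018 with a filter of 5 FPKM, -0.11 with voom on the same genes and -0.13 with voom at 10 fragments. On leaving out a library the log2 fold change of Aurka ran from -0.12 to 0.00229, above 0 without Ctrl 2, and that of Kif20a from -0.086 to 0.00411, above 0 without Ctrl 1. The other 305 of 311 values of the 22 members kept their direction and their side of the threshold. Deviations from the group mean correlated at 0.284, 0.0393 and 0.280 between libraries with the same number, and each library correlated best with its own number. Ctrl 1 with ZA 3 and Ctrl 3 with ZA 1 correlated at -0.297 and -0.244. The deviations of a group sum to 0, so these values cannot decide whether the numbers pair the libraries. The main fit used no pairing. Apart from Cenpa the replicate block changed no call of a member. The cause of these shifts was not tested. A member had a median of 226.5 fragments in a library, and the intervals of 28 of the 36 tested members held 0.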
